A study of Nicotiana tabacum with 12 samples.

Results

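In leaves of 5-week-old tobacco plants (*Nicotiana tabacum* cultivar Xanthi NN), 82 of 35519 NiTAB gene identifiers had a mean transcript level that was lower at each step from the wild type to the transgenic lines L14, L15, and L16. The lines express *DcLCYB1*, the lycopene β-cyclase 1 gene of carrot, and the wild type carries no transgene. The 82 genes were chosen by their measured levels. The values used were CPM, the reads counted on a gene for every 1000000 gene counts of its library. A gene was selected on a wild type mean of at least 5 CPM, a ratio of at most 0.85 at each of the 3 steps, an L14 to wild type ratio above 0.5, and a highest L16 library below the lowest wild type library. Of the 35519 identifiers, 8987 reached 5 CPM in the wild type, and the 82 genes are among these.

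Each genotype was represented by 3 biological replicates, and total RNA of leaves was used for 12 QuantSeq 3' mRNA-Seq libraries. The labels give the lines as the T4 generation for growth and the plants used for RNA as T3, and the promoter of the transgene was not given in the sources used here. Wild type and lines were both raised from seeds on MS medium with sucrose and kanamycin, according to the labels. Library totals ranged from 12887911 to 24343174 gene counts. In these libraries reads come from the polyadenylated end of a transcript, so that CPM does not scale with gene length. Leaf tissue is a mixture of cells, and fewer cells of a type and less RNA per cell cannot be told apart in such samples.

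Lycopene β-cyclase closes the rings at both ends of lycopene to give β-carotene, a step of carotenoid synthesis in the plastid. β-carotene takes part in photoprotection, and the carotenoids made from it are precursors of the hormone abscisic acid. The genome of tobacco is tetraploid, so that many genes are present as near-identical copies, and reads that align to several copies were not assigned to a gene in the deposited counts. The files list genes by NiTAB identifier without names, and 0 of the 35519 identifiers were found in the gene annotation used here. The leaf label could therefore not be checked with marker genes, and the function of the 82 genes is not given. Identifiers are printed for the most abundant gene and for the gene with the lowest ratio of L16 to wild type, and the others are called by their rank in wild type level.

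Summed over the 82 genes, the share of gene counts in the wild type was 0.356% ± 0.0294 (SD, n = 3). It was 0.248% ± 0.00976 for L14 and 0.191% ± 0.0128 for L15, and L16 had 0.136% ± 0.00516 (SD, n = 3 each). The lowest wild type library held 0.322%, and the highest L14 library held 0.254%. No library of the summed share overlapped with a neighbouring genotype, since L15 ranged from 0.177% to 0.202% and L16 from 0.132% to 0.142%. These levels follow from the choice of the genes and are a description.

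**Figure D1:**
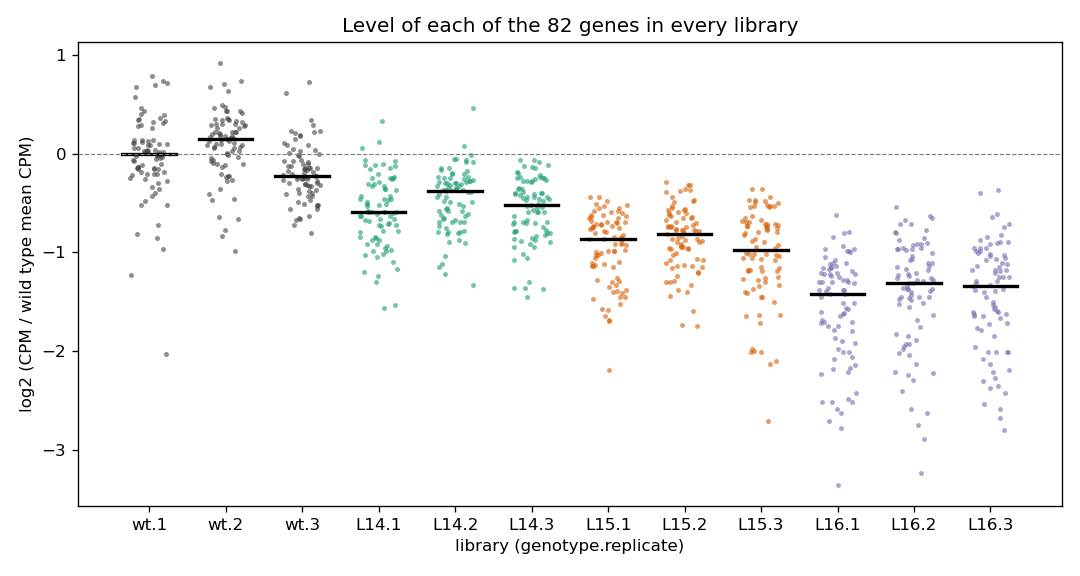
Level of each of the 82 genes in the 12 libraries, as log2 of the CPM over the wild type mean of that gene (y axis) by genotype and replicate (x axis), where each point is 1 gene and each bar is the median of a library. The medians lay between -0.22 and 0.14 in the wild type, between -0.59 and -0.38 in L14, between -0.98 and -0.81 in L15, and between -1.42 and -1.31 in L16.

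The wild type mean of the 82 genes ranged from 5.11 to 436 CPM, with a median of 19.6 CPM. The median over the 8987 genes of at least 5 CPM was 20.1 CPM, close to that of the chosen genes. Of the 82 genes, 7 had at least 100 CPM in the wild type, 59 had between 10 and 100 CPM, and 16 had less than 10 CPM. All 82 genes passed the filter on low counts. The lowest count of any of them in any library was 13, which is above the 3 counts taken as the detection floor.

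From the wild type to L16 the ratio of means had a median of 0.398, with a range from 0.168 to 0.572. In 69 of the 82 genes L16 had at most 50% of the wild type level, and in 13 genes at most 25%. The median ratio was 0.728 from the wild type to L14, 0.778 from L14 to L15, and 0.739 from L15 to L16. On the log2 scale, L14 had covered a median of 36.7% of the difference between the wild type and L16, with a range from 11.1% to 58.7%. L15 had covered a median of 66.1%, with a range from 32.9% to 83.5%. The step with the lowest ratio was that from the wild type to L14 in 38 genes, that from L15 to L16 in 30, and that from L14 to L15 in 14. In 46 of the 82 genes, the 3 step ratios were within 1.2 times of each other.

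Nitab4.5_0000679g0040 was the most abundant of the 82 genes. Its level in the wild type libraries was 471, 403, and 434 CPM, which correspond to between 6075 and 10556 counts. The L14 libraries had 290, 347, and 250 CPM, and the L15 libraries had 250, 260, and 192 CPM. In L16 it had 167, 160, and 139 CPM. All wild type libraries were thus above all line libraries, and all L16 libraries were below those of the other lines, whereas the libraries of L14 and L15 overlapped. The means ± SD (n = 3) were 436 ± 34.4, 296 ± 48.8, 234 ± 36.9, and 155 ± 14 CPM in the wild type, L14, L15, and L16.

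Nitab4.5_0000633g0030 had the lowest ratio of L16 to wild type, at 0.168. It was less abundant and varied more between wild type plants, with 7.68, 22.7, and 11.3 CPM. The L14 libraries had 4.70, 10.2, and 6.57 CPM, the L15 libraries 5.30, 5.89, and 3.45 CPM, and the L16 libraries 2.03, 2.26, and 2.73 CPM. The L16 libraries were all below every other library, and 1 L14 library was higher than the lowest wild type library. The counts behind the L16 values were 34, 41, and 47.

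**Figure D2:**
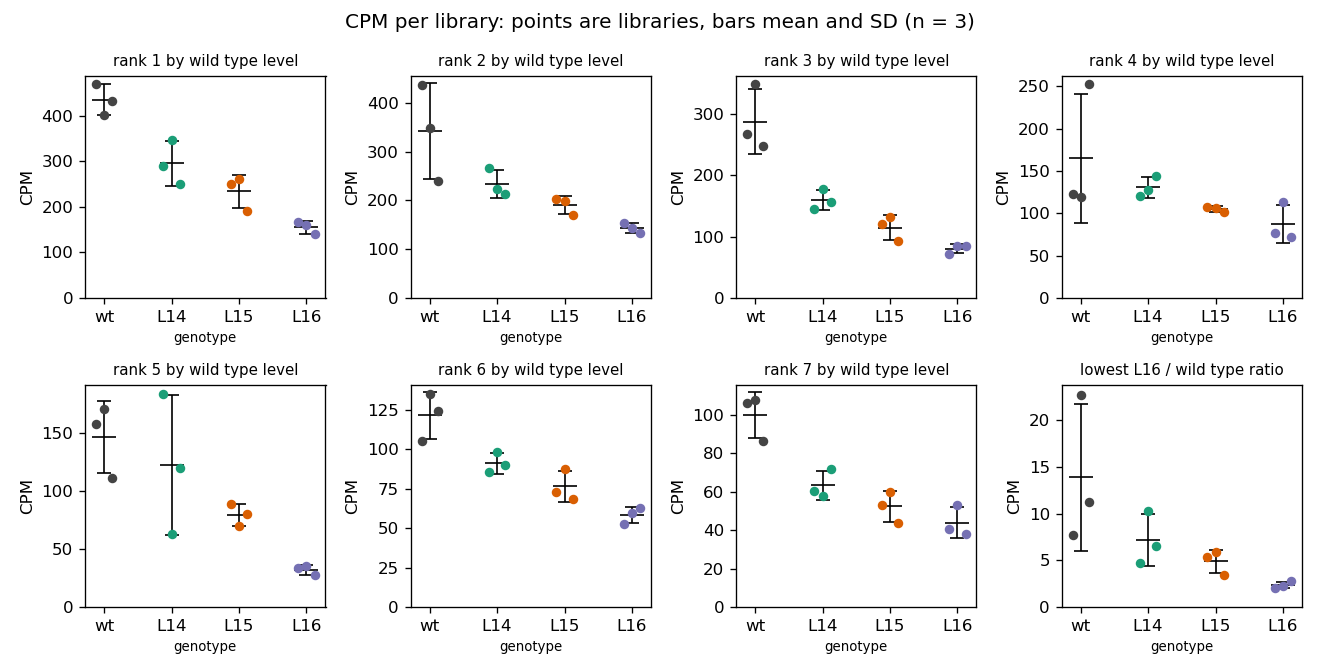
CPM per library (y axis, starting at 0) by genotype (x axis) for the 7 genes with the highest wild type level and for the gene with the lowest ratio of L16 to wild type, where points are libraries and bars give the mean and SD (n = 3). In each panel the highest L16 library is below the lowest wild type library, and the spread differs between genes, as for the gene of rank 5, whose L14 libraries ranged from 62.9 to 183 CPM.

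The other abundant genes differed in how evenly their level was lower. The gene of rank 2 had 436, 349, and 241 CPM in the wild type and 154, 143, and 132 CPM in L16, with L14 between 212 and 267 CPM and L15 between 170 and 204 CPM. Its lowest wild type library lay among the L14 libraries. For the gene of rank 3, the wild type had 268, 349, and 247 CPM, L14 had 146, 178, and 156 CPM, L15 had 120, 132, and 92.5 CPM, and L16 had 71.6, 85.2, and 84.6 CPM. Here no 2 genotypes overlapped.

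The gene of rank 4 owed its high wild type mean to a single library, with 122, 120, and 253 CPM, and its L16 libraries reached 114 CPM. In the gene of rank 5 the main difference was at the last step. This gene had between 69.3 and 88.2 CPM in L15 and between 27.2 and 35.5 CPM in L16, while its L14 libraries of 183, 62.9, and 120 CPM spanned the wild type range of 111 to 170 CPM. The gene of rank 6 had step ratios of 0.750, 0.838, and 0.762. In the gene of rank 7 the first step was the largest, with ratios of 0.634, 0.826, and 0.839.

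Among the genes with the lowest ratios, that of rank 61 had between 6.52 and 14.5 CPM in the wild type, between 5.32 and 7.65 in L14, between 2.84 and 4.32 in L15, and between 1.54 and 2.85 in L16. Its 3 step ratios were 0.583, 0.535, and 0.589, and the gene of rank 50 had a similarly even course with ratios of 0.573, 0.571, and 0.569. In the gene of rank 39, in contrast, the ratio of L14 to wild type was still 0.833, and the ratio at the last step was 0.331. That gene had between 18.7 and 21.6 CPM in the wild type, between 13.9 and 19.3 in L14, between 7.37 and 14.8 in L15, and between 3.14 and 4.95 in L16. The gene of rank 33 had the lowest L15 to L14 ratio (0.433), and 1 library raised its L14 mean. Its L14 libraries had 9.68, 38.6, and 14.6 CPM, and its L15 libraries had between 6.13 and 12.1 CPM.

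The step means were often closer than the libraries behind them. The libraries of L14 lay entirely below those of the wild type in 32 of the 82 genes, compared with 9.48% of the 18823 genes tested. L15 lay below L14 without overlap in 26 genes (7.4% of all tested), and L16 below L15 in 39 (8.78%). In 56 genes the libraries of L14 and L15 overlapped. L15 lay below the wild type in 70 genes (12% of all tested) and L16 below L14 in 74 (12%). The absence of overlap between L16 and the wild type in all 82 genes (14.8% of all tested) was required by the choice. In 5 of the 82 genes no library crossed into a neighbouring genotype at any step, namely those of rank 3, 21, 31, 55, and 75, while 10 of the 8987 genes of at least 5 CPM had this property. The gene of rank 21 had between 42.6 and 63.5 CPM in the wild type, between 36.8 and 41.3 in L14, between 31.8 and 33.6 in L15, and between 25.9 and 26.2 in L16. In the gene of rank 55 the corresponding ranges were 13.0 to 14.28, 8.71 to 11.3, 7.63 to 8.52, and 5.12 to 7.38 CPM.

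With edgeR's quasi-likelihood test on all 18823 genes (Benjamini-Hochberg adjusted p-value under 0.05), all 82 genes were called lower in L16 than in the wild type, where 12.7% of all tested genes were. In L15, 73 of the 82 were called lower than in the wild type (6.85% of all tested), and in L14, 24 (5.94%). Between lines, 21 were called lower in L16 than in L14 (0.574% of all tested) and 2 in L16 than in L15 (0.218%). These 2 are the genes of rank 5 and 39. None of the 82 was called between L15 and L14, where 0.00531% of all tested genes were called lower. At an unadjusted p under 0.05, 9 of the 82 were lower in L15 than in L14 (1.84% of all tested), and DESeq2's Wald test called 0 (0.0256% of those it tested). The genes were chosen on these same comparisons and the comparisons share libraries, so that the counts describe the genes and give no independent evidence. The number called between L16 and L14 was 43 with DESeq2's Wald test on the 12 libraries (1.93% of those it tested). With edgeR it was 3 without L14 replicate 2 (0.0932% of all genes tested then) and 5 without L16 replicate 2 (0.13%). It was 9 without L14 replicate 3 (0.243%) or L16 replicate 1 (0.272%), and 12 without L15 replicate 1 (0.367%). The share of all tested genes was thus also below the 0.574% of the 12 libraries. In L14 against the wild type, 13 were called without L14 replicate 1 (2.52% of all genes tested then) and 15 without L14 replicate 3 (4.54%). In L15, 40 were called without L15 replicate 1 (2.72%). Between L16 and L15, 1 was called without any single one of L15 replicates 1 (0.031%), 2 (0.0155%), and 3 (0.133%) and L16 replicates 1 (0.0718%) and 2 (0.0207%).

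Compared with the wild type, the 82 genes had a median log2 fold change of -0.59 in L14 (0.02 over all tested genes), -0.96 in L15 (0.01), and -1.39 in L16 (0.00). Between lines, the median of the 82 genes was -0.32 from L14 to L15, -0.43 from L15 to L16, and -0.76 from L14 to L16.

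Libraries that had no part in the choice were read by holding out the replicates of 1 number. The same thresholds were applied to the 8 libraries with the other 2 numbers, and the level of the chosen genes was then read in the 4 libraries held out. With replicate 1 held out, 93 genes were chosen, and 40 of them (43.0%) were in the order wild type, L14, L15, L16 in the held-out libraries. With replicate 2 held out this was the case for 43 of 85 (50.6%), and with replicate 3 for 35 of 112 (31.2%). Among all genes of at least 5 CPM, 16.11%, 10.3%, and 7.99% were in this order in the same libraries. L16 was lower than the wild type in 97.8%, 95.3%, and 92.0% of the chosen genes, compared with 58.0%, 45.5%, and 45.8% of all. Of the chosen genes, 45 of 93, 40 of 85, and 48 of 112 were among the 82, so the values are not those of the 82 genes themselves. The difference between L16 and the wild type was thus present in nearly all chosen genes outside the libraries that chose them. It was also present in most genes chosen by a limit on L16 without the steps, as given below. The complete order was present in a smaller number of the chosen genes.

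The ratio of L16 to wild type in the held-out libraries had a median of 0.399, 0.481, and 0.555 with replicate 1, 2, and 3 held out. In the libraries used for the choice, it was 0.382, 0.376, and 0.378. The middle step varied with the replicate, as L15 was lower than L14 in 63 of 93, 61 of 85, and 90 of 112 chosen genes (67.7%, 71.8%, and 80.4%), compared with 63.8%, 46.2%, and 54.8% of all genes of at least 5 CPM.

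A comparison added after these values were seen used genes under the same upper limit on the L16 to wild type ratio (at most 0.614, without overlap, and with L14 above 0.5 of the wild type) that did not meet the 3 steps. There were 599 such genes in the 12 libraries. In the held-out libraries 39.1% of 581, 33.3% of 708, and 28.3% of 846 of them were in the order wild type, L14, L15, L16. The percentage in the genes chosen for their steps was higher by a small amount with replicates 1 and 3 held out (43.0% and 31.2%) and by a larger amount with replicate 2 held out (50.6%). The genes without the steps were closer to the wild type, with a median ratio of L16 to wild type of 0.502, 0.574, and 0.677 in the held-out libraries, so that the groups were not matched in the size of the difference. In the held-out libraries L16 was lower than the wild type in 94.8%, 93.5%, and 87.8% of the genes without the steps. In the genes chosen for their steps this was 97.8%, 95.3%, and 92.0%. L15 was lower than L14 in 59.7%, 59.5%, and 65.8% of the genes without the steps. L16 was lower than L15 in 88.0%, 74.0%, and 74.3% of them, compared with 84.9%, 78.8%, and 67.9% of the genes chosen for their steps. Genes are not independent replicates, and no test was made of these percentages.

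**Figure D3:**
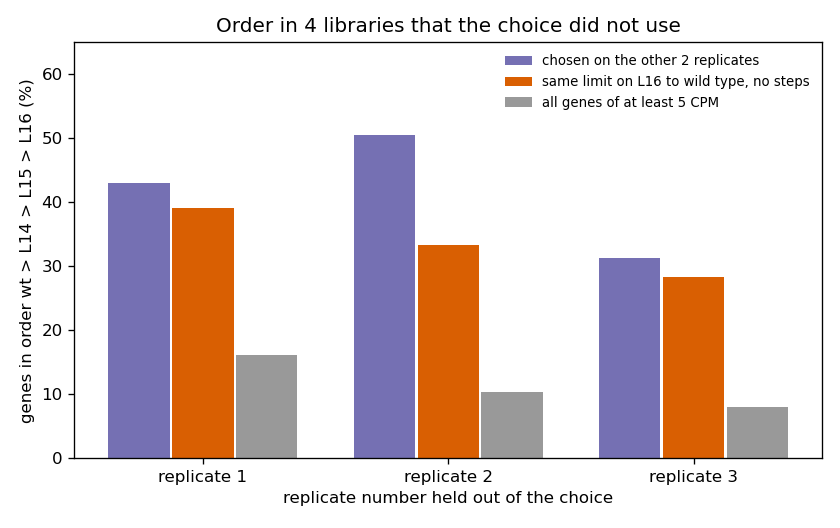
Percentage of genes in the order wild type, L14, L15, L16 (y axis) in the 4 libraries of the replicate number held out (x axis), for genes chosen on the other 8 libraries, genes under the same limit on the L16 to wild type ratio without the steps, and all genes of at least 5 CPM in the wild type. The genes chosen for their steps have 43.0%, 50.6%, and 31.2%, the genes without the steps 39.1%, 33.3%, and 28.3%, and all genes 16.11%, 10.3%, and 7.99%.

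Membership depended on single libraries. When each of the 12 libraries was left out in turn, between 74 and 106 genes met the thresholds, and 11 of the 82 genes met them in every case. CPM with edgeR's TMM scaling factors gave 73 genes, of which 54 were among the 82. With the median in place of the mean, 81 genes met the thresholds, of which 45 were among the 82. The TMM factors ranged from 0.854 in wild type replicate 3 to 1.10 in L14 replicate 1. At the limits, the highest L15 to L14 ratio of the 82 genes was 0.849, and 416 genes missed this limit alone, the nearest with a ratio of 0.850005. The L16 to L15 limit alone was missed by 113 genes (0.848 inside and 0.851 outside), and the L14 to wild type limit of 0.85 by 72 (0.845 and 0.8503). A further 109 genes missed the wild type minimum alone (5.11 and 4.98 CPM), 30 were lost to the lower limit on L14 (0.502 and 0.487), and 7 to the overlap of L16 with the wild type (0.968 and 1.04 for the highest L16 over the lowest wild type library). With the lines in another order, between 2 and 13 genes were found. There the limit of 0.5 was put on the first line of the order and the limit on overlap on the last. The mirrored thresholds for genes rising from the wild type to L16 were met by 86.

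The 82 genes varied more between plants of a genotype than the genes of at least 5 CPM did as a whole, which is a description from the libraries of the choice. Their biological coefficient of variation, as estimated by edgeR, had a median of 0.195, compared with 0.161 over the 8987 genes of at least 5 CPM. Within the wild type the coefficient of variation of CPM had a median of 21.6% over the 82 genes and 16.33% over all, and within L16 it was 20.7% and 15.8%. In L14 the medians were 16.8% and 11.7%, and in L15 15.28% and 10.7%. Deviations from the genotype mean were only weakly shared between the genes. The correlation of these deviations over the 12 libraries had a median of 0.0828 over 3321 pairs of the 82 genes and 0.018 over pairs of all genes of at least 5 CPM, as a description of genes that share libraries.

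Deviations within a genotype were tested, as the step ratios did not use them. The limit on overlap between L16 and the wild type did use single libraries, so that the choice was not fully separate from these tests. None of the 82 genes differed with the replicate number beside genotype, and 0% of all 18823 genes did, in edgeR's quasi-likelihood test with the same adjustment and threshold. At an unadjusted p under 0.05, 19 of the 82 genes did (12.9% of all), as did 1735 of the 8987 genes of at least 5 CPM. Without the filter on low counts, 14 of the 82 genes differed with the replicate number at the adjusted threshold, as did 3.45% of the 28986 genes then tested.

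The spike-in RNAs, synthetic sequences added to the RNA, were not the same in all libraries. Of all spike-in counts, SIRV4 and SIRV7 together took between 6.86% and 7.13% for the wild type and between 8.30% and 10.6% for the lines. The first principal component of 62 spike-in sequences held 28.5% of their variance and lay between 1.37 and 1.71 in the wild type and between -1.98 and 1.17 in the lines. Its sign was set so that the wild type mean was above 0. With this component beside genotype, 3 of the 82 genes (3.66%) followed it in the same edgeR test and at the same threshold, compared with 2.58% of all tested genes and 4.36% of those of at least 5 CPM. These were the genes of rank 9, 16, and 52, with adjusted p-values of 0.0465, 0.0178, and 0.0146, and all 3 were higher where the component was higher. The number was 0 without L14 replicate 1 (0.283% of all genes tested then) or L16 replicate 3 (0.0563%). It was 1 without L14 replicate 3 (0.682%), L15 replicate 1 (0.599%) or 3 (0.803%), or L16 replicate 1 (0.149%). The slope was above 0 in 57 of the 82 genes (69.5%) and in 60.4% of the genes of at least 5 CPM. Of the 392 genes of at least 5 CPM that followed the component at the adjusted threshold, 192 had a slope above 0. The gene of rank 9 had 17.3, 11.7, and 37.7 CPM in L16 replicates 1, 2, and 3, where the component was -1.51, -0.70, and 1.17.

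**Figure D4:**
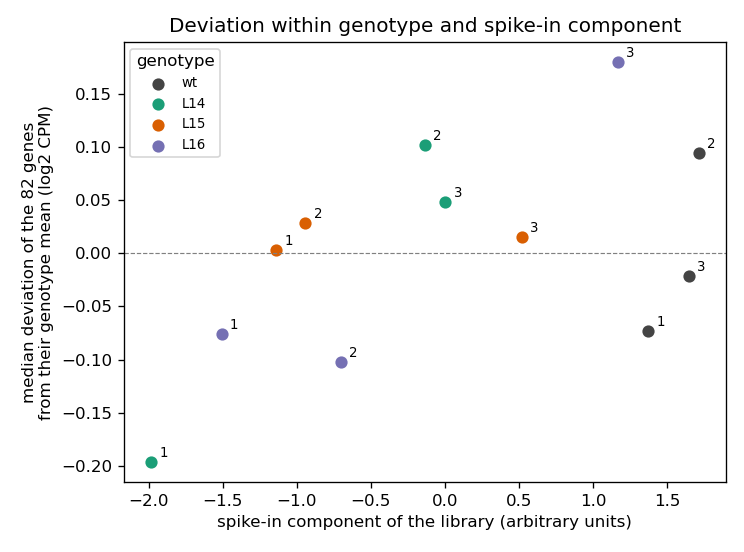
Median deviation of the 82 genes from their genotype mean in log2 CPM (y axis) against the spike-in component (x axis, arbitrary units) for the 12 libraries, numbered by replicate and coloured by genotype. The lowest deviation, -0.20, is that of L14 replicate 1, which has the lowest component (-1.98), and the highest, 0.18, is that of L16 replicate 3, which has the highest component among the lines (1.17). Over all genes of at least 5 CPM (not drawn), the same libraries were the lowest and highest, at -0.05 and 0.05. Not every library followed this order, since L16 replicate 2 had -0.10 at a component of -0.70 and L16 replicate 1 had -0.08 at -1.51.

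With the component in the model, an alternative added after the data had been examined, the median log2 fold change of the 82 genes from the wild type to L16 was -1.28, and 64 were called lower with edgeR (5.96% of all tested). When the SIRV4 and SIRV7 share took its place, the median was -1.20, and 31 were called lower (2.46%). In L15 the counts were 26 (1.71% of all tested) and 12 (1.07%), and in L14 8 (1.14%) and 4 (0.696%). Genotype and the spike-in measures moved together, and their part in the levels of the 82 genes cannot be told apart from genotype with these libraries. With these covariates 38 (1.32% of all tested) and 32 (1.25%) of the 82 genes were called lower in L16 than in L14, in models of all 12 libraries. Reads outside genes made up between 35.6% and 38.1% of the listed reads in the wild type and between 33.4% and 36.4% in the lines, and the part of this difference was not tested.

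NiTAB identifiers contain the number of the genome scaffold and the place of the gene on it. The 82 genes were spread over 81 of the 3300 scaffolds. A single scaffold, number 322, held 2 of them, those of rank 20 and 75. None of the 82 genes was a direct neighbour of another, nor within 5 listed places of one. With 82 of 35519 identifiers, few such neighbours would be present among genes spread at random, and no expected number was computed. Their direct neighbours comprised 145 other identifiers, of which 91 were tested. From the wild type to L16 the median log2 fold change of these neighbours was -0.07, with quartiles of -0.43 and 0.53, and that of all tested genes was 0.00, with quartiles of -0.43 and 0.52. Of the neighbours, 52.7% had an estimate lower than the wild type, compared with 49.8% of all.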

How the data were processed

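The authors prepared QuantSeq FWD 3' mRNA-Seq libraries from total leaf RNA, sequenced them in a single run, used STAR for mapping against NiTAB 4.5, and deposited for every library the raw, not normalized read counts of each gene. The counting program, its version, and its strand setting were not given in the sources used here, so overlapping and antisense genes may share reads. The deposited counts listed 35519 NiTAB identifiers, 99 spike-in sequences, and 5 summary lines. Spike-ins and summary lines stayed out of library totals and gene tests. They held reads outside genes (33.4% to 38.1% of the listed reads) and not uniquely aligned reads (19.1% to 21.4%).

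CPM was computed over the summed gene counts. Differences were tested with edgeR 4.0.16 in R 4.3.3 (TMM scaling, filterByExpr with a minimum of 10 counts, quasi-likelihood test, Benjamini-Hochberg adjustment over 18823 genes, threshold 0.05) in one model of the 12 libraries with genotype as the only factor. The study used DESeq2, here version 1.42.0 was an alternative. Other values were computed with Python 3.11.15. Log2 CPM used a prior count of 2. Spike-ins with a mean of at least 10 counts entered the component. The script was tested on simulated data. The detection floor of 3 counts covers counting error only.

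Identifiers were printed by a rule: the gene with the highest wild type mean and that with the lowest ratio of L16 to wild type. The genes of other ranks were picked after their values were seen. The genes, the thresholds, and all tests were chosen with earlier results of these data known. The carrot transgene was not analysed here. Alternatives were another test, other scaling, no filter, 6 libraries, the replicate block, covariates, a minimum fold change, other thresholds, and each library left out.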

Additional observations from a re-analysis of the deposited data

Results flagged for a closer look

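The thresholds required a lower mean at each step, so that a difference between the lines was fixed by the choice of the 82 genes. In edgeR's quasi-likelihood test, 21 of the 82 genes had an adjusted p-value under 0.05 for L16 against L14. Of all tested genes, 0.574% were called lower there. For L16 against L15 there were 2 of the 82 (0.218% of all tested). Each was lower in L16, as the thresholds required of the means. For L15 against L14 the number was 0 (0.00531% of all tested). Among the spike-in sequences, which the comparisons of genes do not use, SIRV4 and SIRV7 also differed. Together they took a mean of 9.37% of the spike-in counts in L14, 9.29% in L15, and 9.64% in L16, compared with 6.96% in the wild type. All spike-in counts together had a mean of 5.28% of the gene counts in the wild type, 5.14% in L14, 5.14% in L15, and 5.59% in L16.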

How the results depend on the processing

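Counts below are numbers of the 82 genes called lower, unless stated, and no cause of a change was tested. With a step ratio of 0.80, 0.90, or a wild type minimum of 1 CPM, 37, 186, and 154 genes met the thresholds. Where an absolute log2 fold change of at least 1 was also required, 3 were called in L14 (1.97% of all tested) and 33 in L15 (2.68%) against the wild type, and 9 between L16 and L14 (0.239%). Without scaling factors, 10 were called in L14 (3.31%). Without a filter, 49 were called for L16 against L14 (1.19% of 28986), 12 for L16 against L15 (0.573%), and 1 for L15 against L14 (0.114%), while 14 followed the replicate number (3.45%) and 5 the spike-in component (2.13%). DESeq2's Wald test called 5 between L16 and L15 (0.832%) and 43 between L16 and L14. With the share of SIRV4 and SIRV7 as covariate, 4 were called in L14, 12 in L15, 31 in L16, and 32 between L16 and L14, and the median log2 fold change in L16 was -1.20. With the spike-in component, added after the data were examined, 8 were called in L14, 26 in L15, and 38 between L16 and L14.

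Same-numbered libraries were not treated as pairs, since not every correlation of their deviations was above 0.1. The correlations ran from -0.05 to 0.24 over all genes (-0.26 to 0.55 over the 82). Among the lines, same-numbered libraries were in most cases more alike than libraries of other numbers. Between L14 and L15 the correlations over all genes were 0.171, 0.0876, and 0.151 for replicates 1, 2, and 3. The highest with another number were -0.021, -0.0157, and -0.0673. Between L14 and L16, replicate 2 went the other way (-0.0499 and 0.123). Between the wild type and the lines, several did. In the fit with a replicate block, 41 genes were called in L14 (8.2% of all tested), 5 between L16 and L15 (0.393%), and 38 between L16 and L14 (1.33%). With the replicate block and the spike-in component in one model, 0 followed the component, as did only 0.00531% of all tested genes.

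With 1 library left out, the genes called ranged from 13 to 31 in L14, from 40 to 77 in L15, from 79 to 82 in L16, from 1 to 3 between L16 and L15, and from 3 to 30 between L16 and L14. The number that followed the component ranged from 0 to 4 and that for the replicate number from 0 to 1. Without wild type replicate 3, 4 followed the component (3.95% of all genes tested then) and 1 the replicate number (0.847%). Without L16 replicate 2, 4 followed the component (1.81%). The highest numbers called lower were 31 in L14 (6.77%) and 77 in L15 (8.06%), both without L16 replicate 3. Between L16 and L15, 3 were called without wild type replicate 1 (0.231%). Between L16 and L14, 30 were called without wild type replicate 3 (0.94%). In L16, 79 were called without L16 replicate 1 (8.38%) and 82 without L16 replicate 3 (13%), among others. The libraries behind the other low values are given with the results, with the shares of all tested genes called without them. Leaving out 1 library or all libraries of a replicate number gave between 74 and 112 genes that met the thresholds. Under the settings not named for them, the other counts stayed within 1.5 times their value, and the median log2 fold change in L16 stayed within 1 SD between replicates.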
